A study of Mus musculus with 2 samples.

Results

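The genes described here build ribosomes in the nucleolus: 60 named mouse genes for nucleolar proteins, small nucleolar ribonucleoproteins (snoRNPs), ribosomal RNA processing factors and subunits or regulators of RNA polymerases I and III. They were chosen by name, with earlier results of these data known. A gene was given a value when the platform's annotation puts it alone on an array row. Of the 60 genes 56 had such a row. Nop56, Gnl3 and Ebna1bp2 were annotated only on rows shared with another gene, so no value is given under their names, and Npm3 has no row that could be used here. The 56 genes compare with 30671 genes that have a row of their own in the whole series.

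The study compared 2 arrays, 1 of wound healing corneal epithelium from injured eyes and 1 of epithelium from the uninjured fellow eyes of C57BL/6 mice of both sexes, aged 8 weeks and anesthetized with ketamine and xylazine. In the injured eyes a 0.5 mm rust ring remover had stripped all layers of the epithelium up to the limbal border. Both tissues were collected after some 48 hours, with 10% of the wounded area not yet covered. The injured sample therefore comes from a healing epithelium, and how much of it had regrown was not measured here. The sources used here do not give the number of mice behind each array.

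Ribosome production starts in the nucleolus, where RNA polymerase I copies the ribosomal DNA into a long precursor RNA. The precursor is modified under the guidance of snoRNPs, folded and cut by the small subunit processome, and packed into separate small and large subunit particles that are finished on the way to the cytoplasm. RNA polymerase III supplies the remaining small ribosomal RNA and the transfer RNAs. The pathway is known to be active in growing and dividing cells, and an epithelium that closes a wound both migrates and proliferates.

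The deposited values are log2 intensities, so a difference of 1 is 2-fold. With 1 array per group the spread between samples is unknown, and every comparison below is by size alone, without a p-value. Differences are injured minus uninjured. As a measure of disagreement within these arrays, rows of the same gene differed in their log2 difference with an SD of 0.243 (523 rows of 247 genes), and this is not an error between animals. The background is the 18961 genes whose mean over both arrays reaches 5.44, the table median. All 56 genes lay above that level in both arrays, so the low-signal filter removed none of them.

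Ribosome biogenesis genes were higher in the injured epithelium nearly throughout. The median level was 8.85 in the injured array and 8.04 in the uninjured array, and the summed linear intensity of the 56 genes was 35758 in the injured array against 18201 in the uninjured array. Of the 56 genes 55 had a higher value in the injured array, and Polr3g alone was lower. Among background genes 58.3% were above 0. At least 2-fold higher were 21 of 56 genes (37.5%), against 4.16% of background genes, and 0 of 56 were at least 2-fold lower, against 3.89%. Because the genes were chosen with earlier results of these data known, these shares describe the list and are not independent support. Of 127 other genes of ribosome assembly, a pool that includes other polymerase I and III machinery, 8 (6.30%) were at least 2-fold higher. At 1.5-fold, 42 of 56 genes were higher, against 11.1% of background genes. The median difference was 0.81, a 1.76-fold change, beside 0.06 over the background genes, and 6.44% of background genes had a difference as high as that median.

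The shift was broad and of moderate size. Differences ran between -0.27 and 1.59 with an SD of 0.38 across genes, and no gene reached 4-fold. Of the 56 genes 53 lay above 0.26, the 75th percentile of the background, and 40 lay above 0.63, its 90th percentile. Ubtf and Imp3 were the 2 of 56 genes whose difference was smaller than the SD between rows of one gene. The count at 2-fold cuts through a dense stretch of values: 7 genes lay up to 0.1 above the threshold and 6 lay up to 0.1 below it. Just inside were Nhp2 (1.03) and Nop14 (1.00), and just outside were Bop1 (0.99) and Fbl (0.96).

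**Figure D1:**
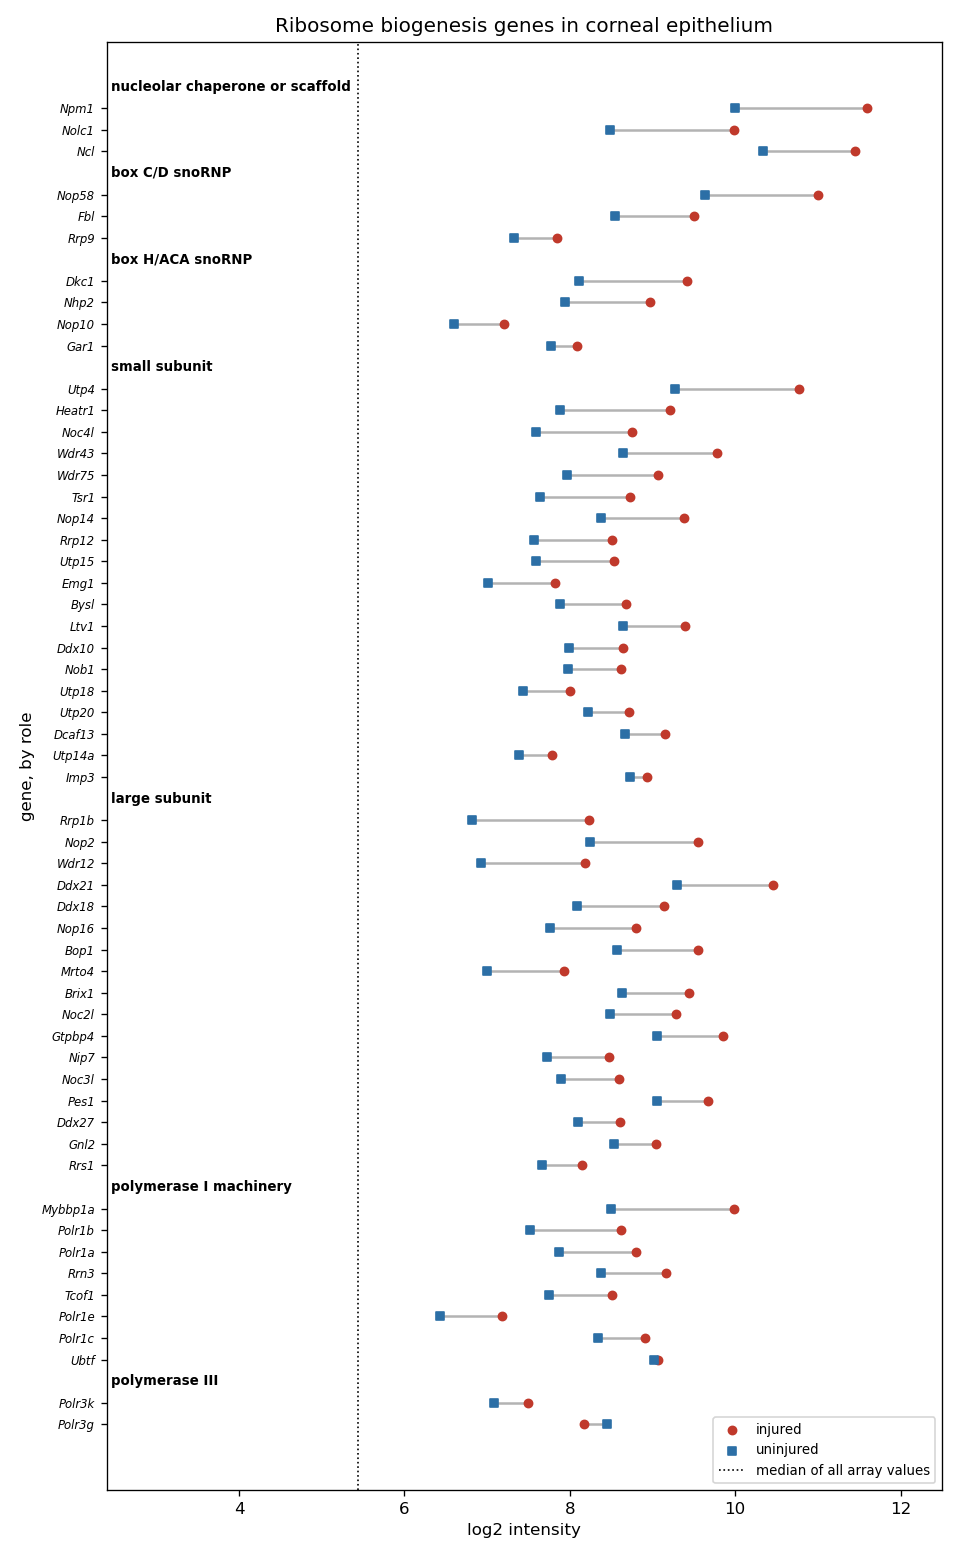
Log2 intensity (x axis) of the 56 ribosome biogenesis genes (rows, grouped by role and sorted by difference) in the injured array (red circles) and the uninjured array (blue squares), 1 array each; the dotted line marks the table median, 5.44. The red circle lies to the right of the blue square for 55 genes and to the left for Polr3g.

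**Figure D2:**
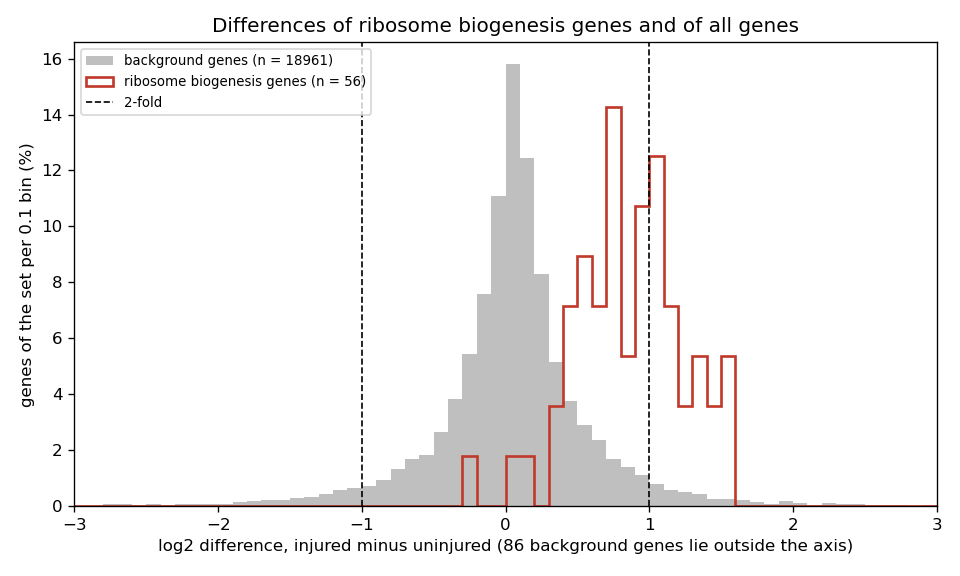
Share of genes (y axis, % of each set per bin of 0.1) by log2 difference, injured minus uninjured (x axis), for 18961 background genes (grey) and the 56 ribosome biogenesis genes (red line); dashed lines mark 2-fold, and 86 background genes lie outside the axis. The background peaks near 0, whereas the ribosome biogenesis genes centre on a median of 0.81.

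The nucleolar chaperones and scaffolds differed most as a group. All 3 with a value passed 2-fold upward, and Nolc1 lay in the middle of them. Npm1, nucleophosmin, a nucleolar histone and ribosome chaperone, read 11.59 in the injured array and 10.00 in the uninjured array, a difference of 1.59 (3.02-fold) and the highest among the 56 genes. Nolc1, which carries snoRNPs through the nucleus and binds polymerase I, read 9.99 in the injured array and 8.49 in the uninjured array (2.83-fold). Ncl, nucleolin, an RNA-binding protein of the nucleolus, read 11.45 in the injured array and 10.33 in the uninjured array (1.12). These are abundant nucleolar proteins with long acidic stretches, and the fourth gene of the group, Npm3, was not analysed here. Its paralog Npm2, known from oocytes, lay below the table median in both arrays (4.93 injured, 4.85 uninjured).

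All 7 snoRNP proteins with a value were above 0, and 3 of them passed 2-fold. Box C/D snoRNPs add methyl groups to ribose. Their scaffold protein Nop58 read 11.00 in the injured array and 9.63 in the uninjured array (1.37), and the methyltransferase Fbl, fibrillarin, read 9.50 injured and 8.54 uninjured (0.96). Rrp9, a protein particular to the snoRNP that carries the U3 RNA, differed by 0.52. The fibrillarin paralog Fbll1 differed by 0.35 near the low-signal level (5.99 injured, 5.64 uninjured).

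Box H/ACA snoRNPs turn uridine into pseudouridine, and their core is made of 4 proteins that all had a value. The catalytic subunit Dkc1, dyskerin, read 9.42 in the injured array and 8.12 in the uninjured array (1.30). Nhp2 followed with 8.97 in the injured array and 7.94 in the uninjured array (1.03). Nop10 (0.60) and Gar1 (0.32) were less than 2-fold apart. The differences of these 4 partners spanned 0.98 on the log2 scale, and whether they truly differ was not tested.

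Of 19 small subunit factors 7 passed 2-fold upward and 0 downward. Their median difference was 0.81. The t-UTP subcomplex binds the precursor RNA first and is tied to its transcription. All 5 of the members counted here were higher, 4 of them at least 2-fold, with a median of 1.14. The largest of these was Utp4, with 10.78 in the injured array and 9.28 in the uninjured array (2.83-fold). Heatr1, the large scaffold of the subcomplex, read 9.21 in the injured array and 7.88 in the uninjured array (1.33). The others of these 5 were Wdr43 (1.14), Wdr75 (1.10) and Utp15 (0.94). The 5 may not be the whole subcomplex. Nol11, listed here with the other small subunit factors, was not counted with them and was under 2-fold (0.62). The grouping of genes into complexes was made after their values were seen, so it describes and does not test.

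Nop14, Noc4l and Emg1 act together in the small subunit processome, Emg1 as a methyltransferase of ribosomal RNA. Noc4l read 8.75 in the injured array and 7.60 in the uninjured array (1.16), Nop14 differed by 1.00 and Emg1 by 0.81. Further processome proteins under 2-fold were the helicase Ddx10 (0.66), Utp18 (0.57), Utp20 (0.49), Dcaf13 (0.49) and Utp14a (0.40). Imp3, which helps U3 pair with the precursor, had the smallest difference of the group, with 8.93 in the injured array and 8.73 in the uninjured array (0.20).

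The 5 factors of the late small subunit particle counted here had differences between 0.65 and 1.09. They may not be all of its factors. The kinase Riok2, listed with the other small subunit factors, was not counted with them (-0.66). The GTPase-like protein Tsr1 read 8.72 in the injured array and 7.64 in the uninjured array (1.09). Rrp12, an export factor, differed by 0.95, Bysl by 0.79 and Ltv1, which leaves the particle in the cytoplasm, by 0.75. Nob1, the endonuclease that makes the last cut of the small subunit RNA, differed by 0.65. Tsr1 was the 1 gene of these 5 that reached 2-fold.

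Of 17 large subunit factors with a value 6 passed 2-fold upward and 0 downward. Their median difference was 0.82. Rrp1b, a nucleolar processing factor, read 8.23 in the injured array and 6.82 in the uninjured array (1.41). Nop2, a methyltransferase of the large subunit RNA that is known as a proliferation antigen, read 9.55 in the injured array and 8.24 in the uninjured array (1.31). The helicase Ddx21, which senses the state of polymerase I transcription, read 10.45 in the injured array and 9.30 in the uninjured array (1.16). The helicase Ddx18 (1.05) and Nop16 (1.04) also passed 2-fold, whereas the helicase Ddx27 (0.51) did not.

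The PeBoW complex, which is needed to process the large subunit RNA, differed unevenly. Wdr12 read 8.19 in the injured array and 6.93 in the uninjured array (1.26). Bop1 differed by 0.99 and stayed just under 2-fold, and Pes1, with 9.67 in the injured array and 9.05 in the uninjured array, differed by 0.62. The other large subunit factors under 2-fold lay between 0.49 and 0.93. They include Mrto4 (0.93), Brix1 (0.82), the partners Noc2l (0.80) and Noc3l (0.71), the GTPases Gtpbp4 (0.80) and Gnl2 (0.50), Nip7 (0.75) and Rrs1 (0.49), which helps to load the small ribosomal RNA of polymerase III. Mrto4 is annotated with several gene identifiers, so its row may also carry signal of copies of the gene. Gnl3l, the paralog of Gnl3, differed by 0.04, with 7.58 in the injured array and 7.53 in the uninjured array.

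Of 8 genes of the RNA polymerase I machinery 2, Mybbp1a and Polr1b, passed 2-fold upward and 0 downward. Their median difference was 0.77. Mybbp1a, a nucleolar protein that binds Myb and regulates ribosomal RNA transcription and processing, read 9.99 in the injured array and 8.49 in the uninjured array (2.82-fold). The second-largest subunit Polr1b read 8.61 in the injured array and 7.52 in the uninjured array (1.09), and the largest subunit Polr1a read 8.81 injured and 7.87 uninjured (0.93). The subunit Polr1e, which takes part in initiation, differed by 0.75.

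Rrn3, the initiation factor that makes polymerase I competent to start and is a known target of growth signalling, read 9.17 in the injured array and 8.38 in the uninjured array (0.79). Tcof1, treacle, a nucleolar scaffold for polymerase I, read 8.51 in the injured array and 7.75 in the uninjured array (0.76). Ubtf, the factor that keeps ribosomal DNA open, read 9.07 in the injured array and 9.02 in the uninjured array (0.05), less than the SD between rows of a gene. Of the background genes 50.6% had a difference as high as that of Ubtf.

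Other parts of the polymerase I machinery, taken from a list of genes by role, had a median difference close to that of the background. The 9 with a value had a median of 0.06, and they ran between -0.52 (Taf1b) and 0.69 (Polr1f). Of these 9 genes 0 were at least 2-fold apart in either direction, which is near the background shares of 4.16% higher and 3.89% lower. Of the subunits outside the 60 genes, Polr1f differed by 0.69, Polr1g by 0.37 and Polr1h by -0.47. Over the 6 subunits used by polymerase I alone 5 were above 0 and the median difference was 0.72. Of the 2 subunits that polymerases I and III share, Polr1c read 8.90 in the injured array and 8.34 in the uninjured array (0.57), and Polr1d read 8.89 in the injured array and 9.08 in the uninjured array (-0.19).

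Polymerase III subunits had small differences. The 10 with a value had a median difference of 0.18, and 0 reached 2-fold in either direction. The background shares were 4.16% higher and 3.89% lower, so a count of 0 among so few genes is near them. Polr3k, a small subunit used in termination, read 7.50 in the injured array and 7.09 in the uninjured array (0.41). Polr3g, which is known from stem cells and tumours as one of 2 mutually exclusive subunits, read 8.18 in the injured array and 8.45 in the uninjured array (-0.27). Its alternative Polr3gl read 7.32 in the injured array and 7.55 in the uninjured array (-0.23), so both alternatives were slightly lower. Both differences are close to the SD of 0.243 between rows of a gene. Among 11 transcription factors and regulators of polymerase III that are not subunits the median difference was also 0.18 and 0 reached 2-fold in either direction, with Gtf3a, which starts transcription of the small ribosomal RNA, at 0.88 and Brf1 at -0.42.

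**Figure D3:**
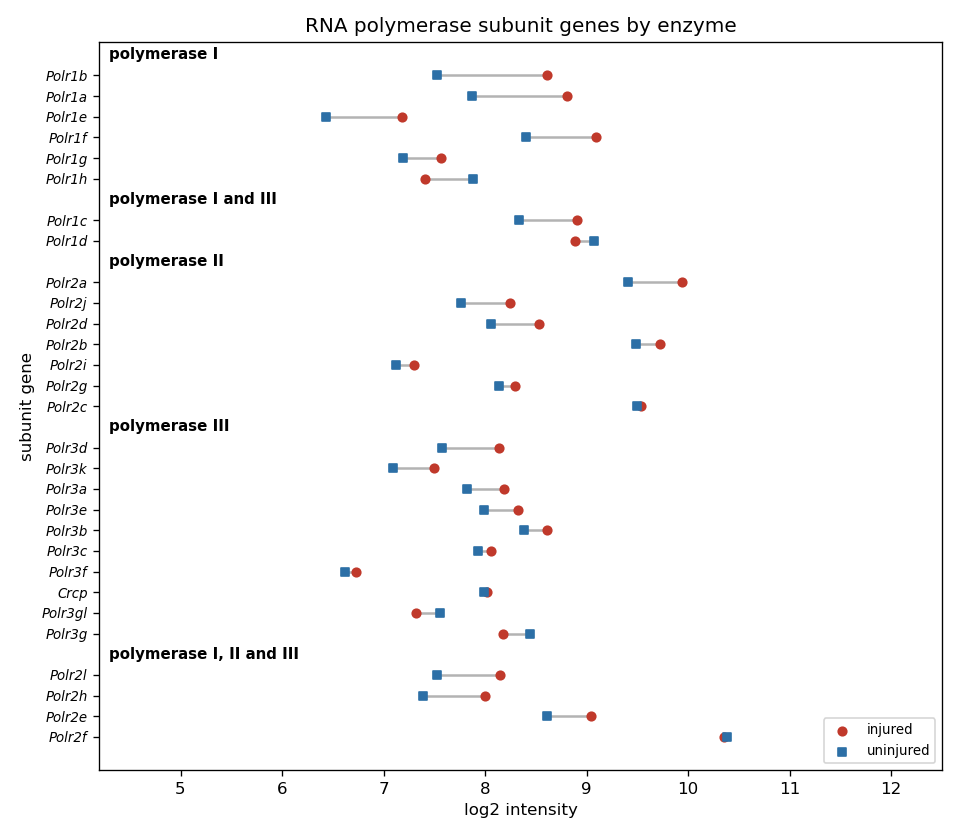
Log2 intensity (x axis) of subunit genes of RNA polymerases I, II and III (rows, grouped by enzyme and sorted by difference) in the injured array (red circles) and the uninjured array (blue squares), 1 array each. Polr1b, Polr1a, Polr1e and Polr1f show the widest gaps, while Polr1h, Polr1d, Polr3g, Polr3gl and, by a narrow margin, Polr2f have the injured value to the left.

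Polymerase II, the enzyme of messenger RNA, serves as a comparison. Its 7 subunits with a value had a median difference of 0.24 and 0 reached 2-fold in either direction. That count too is near the background shares of 4.16% higher and 3.89% lower. Among 4 subunits common to the 3 polymerases the median difference was 0.52, with Polr2l at 0.62, Polr2h at 0.61, Polr2e at 0.43 and Polr2f at -0.02. No test of the difference between enzymes is possible with 1 array per group.

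Genes of ribosome assembly that are not among the 60 were also mostly higher, with a smaller median. The 127 with a value include 9 genes of other polymerase I machinery (median 0.06) and 19 of other polymerase III machinery (median 0.18). In both of these lists 0 genes reached 2-fold, which lowers the pooled share. The median difference of the 127 was 0.45. Of these 8 passed 2-fold upward (6.30%), which is near the 4.16% of background genes, and 0 passed it downward. At 1.5-fold 50 of 127 were higher, against 11.1% of background genes, and 1 was lower. Other small subunit factors had a median of 0.61, with 0 of 35 past 2-fold and 34 of 35 above 0. The exception was Riok2, a kinase of late small subunit maturation, with 8.10 in the injured array and 8.76 in the uninjured array (-0.66). Like the 60 genes, these lists were drawn up by role with earlier results of these data known.

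Of 40 other large subunit factors 5 were at least 2-fold higher and 40 were above 0, with a median of 0.58. The 4 with the largest differences were Mak16 (1.40), Nol8 (1.34), Rpf2 (1.18) and Sdad1 (1.04), all from the list of large subunit assembly factors. Among 14 genes of the RNA exosome and of RNA trimming the median was 0.37, and Exosc8, a ring subunit of the exosome, was the 1 past 2-fold, with 7.91 in the injured array and 6.65 in the uninjured array (1.26). Of 10 snoRNP assembly genes Naf1, which helps to build H/ACA snoRNPs (1.14), and Ruvbl2, an ATPase of the assembly complex (1.02), passed 2-fold, and the median was 0.37.

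**Figure D4:**
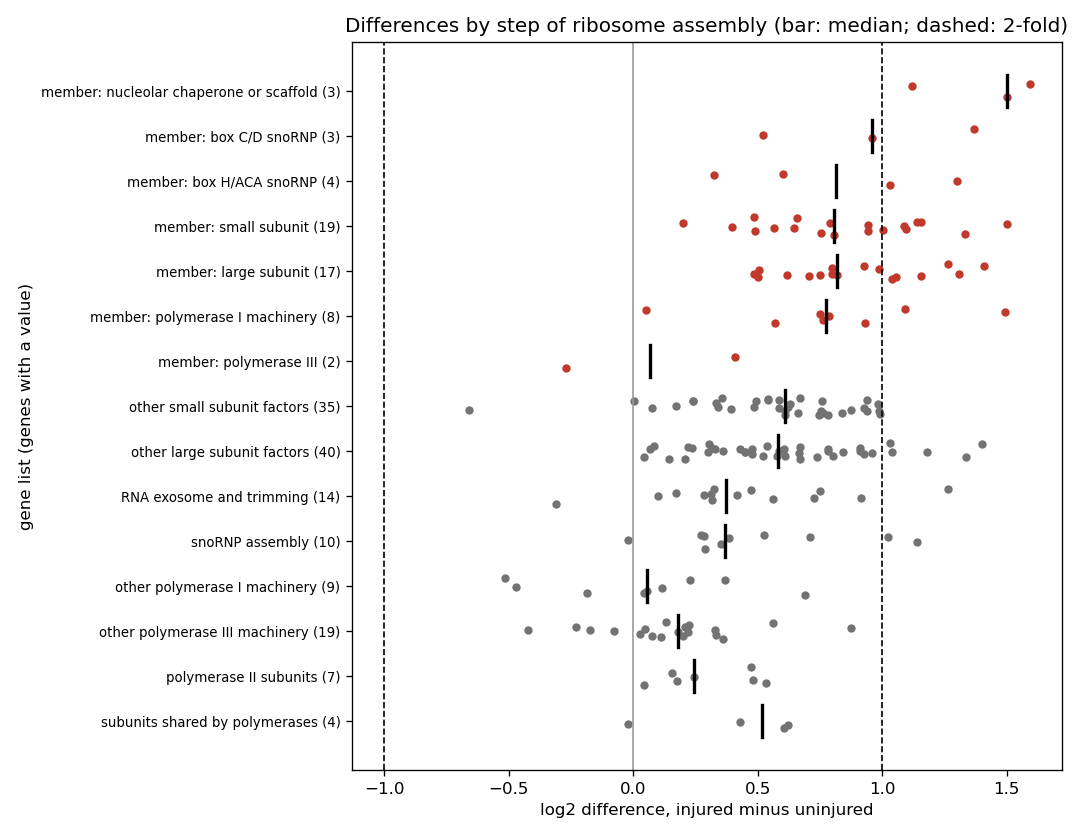
Log2 difference, injured minus uninjured (x axis), of the 56 ribosome biogenesis genes by role (red points) and of other genes of the same steps and of polymerase subunits (grey points); bars are medians, dashed lines mark 2-fold, and the number of genes with a value stands in parentheses. Medians lie at 0.77 or above for every role of the 56 genes except polymerase III, at 0.58 and 0.61 for the other subunit factors, and at 0.06 for the other polymerase I genes.

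Genes for the proteins of the ribosome itself had smaller differences than the genes that assemble it, a contrast that was not tested. Of 33 cytosolic ribosomal protein genes with a row of their own, out of 78, 0 reached 2-fold in either direction, and their differences had a median of 0.18 and a highest value of 0.55. Among 72 mitochondrial ribosomal protein genes 1 was at least 2-fold higher and the median difference was 0.30. Beside background shares of 4.16% higher and 3.89% lower, these counts by themselves say little, and the contrast rests on the medians. Many ribosomal protein rows are bright, and no saturation call was used here.

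Several of these genes carry snoRNAs within their span in the RefSeq annotation of GRCm38.p6, which allows the host and the small RNA to be set side by side. The annotation places 19 snoRNA genes inside 7 of the 60 genes, and 10 of the snoRNAs had a row of their own. Of those 10 snoRNAs 0 were at least 2-fold apart in either direction, 4 were above 0, and the median difference was -0.09. With 4.16% of background genes at least 2-fold higher and 3.89% lower, a count of 0 among 10 is near the background share. Of the 10, 3 lay below the table median in both arrays, and among the other 7 the median difference was -0.17, with 3 above 0. The host Nop58 differed by 1.37, while Snord70 read 7.63 in the injured array and 7.98 in the uninjured array (-0.35) and Snord11 read 7.13 injured and 7.30 uninjured (-0.17). The host Ncl differed by 1.12, while Snora75 differed by 0.82 and Snord82 by 0.10. Snord110 had the lowest difference of the 10, with 9.53 in the injured array and 10.35 in the uninjured array (-0.82). It lies within Nop56, a host without a value here. Snord92 within Wdr43 is one of the 3 below the table median, with 5.31 in the injured array and 4.74 in the uninjured array. How well the labelling captured RNAs of this length was not tested.

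The promoters were read for 2 motifs that the choice of genes did not use, in the 250 bases before each annotated start, on both strands, in RefSeq sequence of GRCm38.p6. CACGTG is the E-box core bound by Myc and related factors, which are known regulators of ribosome biogenesis genes. The promoters of 52 of the 60 genes were found, and 3 held CACGTG (5.77%), against 7.61% of 17491 protein-coding genes. The core of the site of the factor NRF1, GCGCA and GCGC with any 1 base between them, was also held by 3 of 52 genes (5.77%), against 5.84% of protein-coding genes. Neither share lay above that of all genes in this window, and the window leaves out sites behind the start. The median GC content of these promoters was 59.0%, against 55.2% over all protein-coding genes. Each sequence below shows 80 bases on the strand of the gene, 5′ to 3′, with the motif in capitals, so that the match can be seen beside the gene's value; the first 3 hold CACGTG and the last 3 hold the NRF1 core or its reverse complement.
Nop2 (chr6:125131786-125131865, plus strand): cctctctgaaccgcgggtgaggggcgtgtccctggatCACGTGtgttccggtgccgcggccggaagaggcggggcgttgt
Rrn3 (chr16:13780614-13780693, plus strand): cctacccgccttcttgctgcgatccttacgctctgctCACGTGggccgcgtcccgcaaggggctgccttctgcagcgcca
Utp18 (chr11:93885767-93885846, minus strand): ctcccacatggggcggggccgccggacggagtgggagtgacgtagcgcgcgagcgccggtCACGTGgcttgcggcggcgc
Wdr12 (chr1:60098221-60098300, minus strand): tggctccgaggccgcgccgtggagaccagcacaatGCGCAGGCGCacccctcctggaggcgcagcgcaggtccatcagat
Utp15 (chr13:98263010-98263089, minus strand): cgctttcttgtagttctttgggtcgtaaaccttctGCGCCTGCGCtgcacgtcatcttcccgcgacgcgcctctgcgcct
Rrp9 (chr9:106477059-106477138, plus strand): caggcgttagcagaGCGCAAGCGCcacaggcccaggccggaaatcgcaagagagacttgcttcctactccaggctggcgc

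The E-box in Nop2 starts 60 bases before the annotated start, the one shown for Rrn3 starts 48 bases before it and the one in Utp18 starts 20 bases before it. Rrn3 holds 2 matches in its 250 bases, of which 1 is shown. The log2 differences of these 3 genes were 1.31, 0.79 and 0.57, with a median of 0.79, and the 45 genes with a value and no match had a median difference of 0.82. For the NRF1 core the 3 genes with a match had a median difference of 0.94 and the 45 without one had 0.81. These values are descriptions of a match between letters and not of a factor's binding.

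The tissue and its other cells were checked on marker lists. Krt12, the keratin of the corneal epithelium, read 10.85 in the injured array and 14.07 in the uninjured array, and Pax6, the transcription factor of the eye field, read 9.31 injured and 10.63 uninjured. Both lay above the table median in each array. Of 7 markers on the corneal epithelium list 2, Krt14 and Epcam, were at least 2-fold higher and 3, Krt12, Pax6 and the crystallin Aldh3a1, at least 2-fold lower, and the sums were 33398 in the injured array and 52158 in the uninjured array. Aldh3a1 differed by -2.68, Epcam, an epithelial adhesion protein, differed by 1.43 (2.69-fold higher in the injured array), and Cdh1, the epithelial cadherin, differed by 0.35. The epithelial keratin Krt5 read 13.69 in the injured array and 13.85 in the uninjured array, and the basal keratin Krt14 read 13.38 injured and 11.16 uninjured. Of 11 leukocyte markers 2, S100a8 and S100a9, were at least 2-fold higher and 1, Itgam, was at least 2-fold lower, while 10 of 11 were above 0 and the median difference was 0.18. Their summed linear intensity was 1578 in the injured array and 2075 in the uninjured array. Itgam alone set that direction: without it, a choice made after seeing the data, the sums were 1157 injured and 847 uninjured. The pan-leukocyte marker Ptprc lay below the table median in both arrays (4.39 injured, 4.29 uninjured). S100a8 did too (5.32 injured, 3.77 uninjured), so its 2-fold call rests on low signal. Of 7 stromal markers 0 were at least 2-fold higher and 1 was lower, with sums of 475 in the injured array and 545 in the uninjured array. Of 7 endothelial markers 1 was higher and 0 lower (sums of 651 injured and 506 uninjured), and of 7 conjunctival and goblet cell markers 1 was higher and 1 lower (sums of 9464 injured and 9012 uninjured). Those past 2-fold on the conjunctival list were Krt7 (1.34) and Muc5ac (-1.26). The brightest on it in both arrays were Krt4 (11.98 injured, 11.85 uninjured) and Krt13 (11.77 injured, 12.06 uninjured). The part of these cells in the differences of the ribosome biogenesis genes was not tested. In a bulk sample more cells of a type with high levels and more RNA per cell cannot be told apart.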

How the data were processed

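RNA of 1 injured and 1 uninjured corneal epithelium sample, 2 µg each and labelled with biotin, was hybridised to arrays. The authors deposited log2 intensities for 65952 rows. Agilent Feature Extraction 9.1 is named in the submitters' processing notes, although the row names look like transcript clusters. Genome build, background correction, probe summary and normalization were not given in the sources used here. Between the columns the median differed by 0.0135 and the 75th percentile by 0.00513, so the deposited scale was kept.

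Rows were named from the platform annotation, updated through RefSeq (GRCm38.p6): 31221 rows had 1 gene. The 1525 rows with several genes were not named, and 33206 further rows have no name here. The row with the highest mean stood for a gene with several. Genes at or past 2-fold were called, with no test. Members and lists were chosen with earlier results of these data known. Every member could be named, and from other lists up to 4 genes past 2-fold, by size, plus paralogs, Krt12, Pax6, Krt5 and Krt14. Riok2, Nol11, Taf1b, Gtf3a, Brf1, other polymerase subunits, snoRNAs and other markers were named after their values were seen. Alternatives were 4 normalizations, an added constant of 9.58 (linear scale), low-signal filters, rules for the row of a gene, thresholds and the mean. Protein sequences were not used here. Python 3.11.15 with pandas 2.3.3 and statsmodels 0.14.6 was used. The steps were run on simulated data with shifts well past the threshold, which does not check calls near it. The number of arrays limits the precision.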

Additional observations from a re-analysis of the deposited data

How the results depend on the processing

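Only the threshold moved a count by more than 1.5 times. At 1.5-fold 42 of the 56 genes were higher, and at 4-fold 0 were. For the other genes of ribosome assembly the count was 50 at 1.5-fold against 8 at 2-fold, and for polymerase subunits it was 6 against 1. With quantile normalization, with a loess fit removed, with medians or 75th percentiles made equal, and with a constant added, 20 of the 21 genes remained at least 2-fold higher, and the 1 lost in each was Nop14. In those 5 settings 55 genes stayed above 0, and the median difference of the 56 genes lay between 0.80 and 0.81. It was 0.87 with only genes whose mean reached the 75th percentile of the table and 0.86 as a mean. With the 3 shared rows counted too, a choice made after seeing the data, 23 genes passed 2-fold. With the background median of 0.06 subtracted, also chosen then, 17 did. No gene's own difference moved by more than the SD between rows of a gene under the 5 scalings. The choice of row could not change a member, since each has 1 row. No paired analysis was possible because each group has 1 array. Signal limits little here, since all 56 genes lay above the table median in both arrays, but 1 array per group leaves the error between animals unknown. Leaving out Itgam, chosen after seeing the data, turned the direction of the summed leukocyte markers (1157 injured, 847 uninjured).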
